A study of Mus musculus with 18 samples.

Results

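Activity-induced early genes are genes whose transcription starts soon after a neuron is driven to fire, without the need for new protein. The 10 described here, Fos, Fosb, Junb, Egr1, Egr2, Egr3, Egr4, Arc, Npas4 and Nr4a1, were taken by gene symbol from a table of 54446 genes, and each symbol was found on 1 row. RNA was sequenced from the neocortex of 6 CD-1 mice at postnatal day 7, with 1 library for layers 2-3 (L2-3), 1 for layer 4 (L4) and 1 for layers 5-6 (L5-6) of each mouse. All mice had been electroporated in utero at E14.5 (the day of embryonic life), a procedure in which plasmid injected into the ventricle is driven by electric pulses into the cells of its wall. The 3 GFP mice received plasmid without FOXP2, 2 huFOXP2 mice received the human FOXP2 cDNA and 1 moFoxp2 mouse the mouse cDNA; the last 3 are called FOXP2 mice. Per the labels, L4 holds the GFP-positive cells and the other layers GFP-negative cells, and tissue was dissected by layer from sagittal sections of 300 µm. The labels call both L2-3 and L5-6 infragranular, a term for the deep layers alone, so the layer of a library was taken from its title. The promoter of the plasmids is not given in the sources used here, and only a part of the cells of any layer would carry them.

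In a neuron at rest these genes are transcribed little. Calcium entry and kinase cascades activate CREB, SRF with its partners and MEF2, which sit at their promoters, and the RNA appears and decays quickly. Most members encode transcription factors: Fos, Fosb and Junb form the AP-1 dimer, Egr1 to Egr4 are zinc finger proteins that bind GC-rich sites, Npas4 is a neuron-restricted factor of the basic helix-loop-helix family and Nr4a1 (Nur77) is an orphan nuclear receptor. Arc is the exception, a cytoskeleton-associated protein that goes to dendrites and drives removal of AMPA receptors from synapses.

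The promoters of 4 members are shown as examples, with matches to the letters of known motifs marked. The letters are RefSeq promoter sequence of build GRCm38.p6, 5′ to 3′ on the strand of the gene, ending at the annotated start or, for Fosb, short of the first exon in GENCODE M21. Capitals mark the core of the cAMP response element (TGACG, or CGTCA where it lies on the other strand), an Egr site and a TATA box.
Fos: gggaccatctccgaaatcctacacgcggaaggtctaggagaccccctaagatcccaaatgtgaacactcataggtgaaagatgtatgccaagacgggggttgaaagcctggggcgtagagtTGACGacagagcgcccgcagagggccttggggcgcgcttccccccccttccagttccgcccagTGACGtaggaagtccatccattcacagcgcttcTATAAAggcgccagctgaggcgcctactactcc
Fosb: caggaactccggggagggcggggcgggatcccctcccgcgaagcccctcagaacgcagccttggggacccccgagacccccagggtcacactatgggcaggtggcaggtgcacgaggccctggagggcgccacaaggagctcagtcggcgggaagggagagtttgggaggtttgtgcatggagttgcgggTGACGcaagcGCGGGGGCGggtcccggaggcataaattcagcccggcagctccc
Egr4: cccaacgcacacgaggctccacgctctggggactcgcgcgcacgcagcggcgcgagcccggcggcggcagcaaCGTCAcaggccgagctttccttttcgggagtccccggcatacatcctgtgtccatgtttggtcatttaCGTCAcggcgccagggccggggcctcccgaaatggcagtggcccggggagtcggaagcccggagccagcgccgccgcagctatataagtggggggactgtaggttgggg
Nr4a1: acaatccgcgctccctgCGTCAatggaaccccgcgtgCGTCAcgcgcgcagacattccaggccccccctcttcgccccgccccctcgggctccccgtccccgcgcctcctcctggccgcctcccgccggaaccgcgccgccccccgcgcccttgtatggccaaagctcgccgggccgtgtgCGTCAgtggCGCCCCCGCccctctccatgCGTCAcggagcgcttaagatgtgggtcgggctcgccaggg
These are chr12:85473640-85473889 (+) for Fos, chr7:19310052-19310295 (-) for Fosb, chr6:85513590-85513839 (-) for Egr4 and chr15:101266596-101266845 (+) for Nr4a1. In Fos, the core nearest to the start lay 66 to 62 bases before it, followed by TATAAA at 33 to 28 bases. Fosb held a core at 60 to 56 bases and an Egr site at 50 to 42 bases before the start. Nr4a1 held 4 cores, all on the other strand, and an Egr site between those at 69 and 40 bases. The start used for Nr4a1 lies inside its GENCODE M21 span (101254269 to 101274795, + strand), not at the first base of that span.

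Promoter windows of 7 of 10 members, Fos, Fosb, Junb, Egr2, Egr4, Npas4 and Nr4a1, were searched on both strands over the 250 bases before the start. Egr1, on chromosome 18, was left out of the search by choice, and no window was used for Egr3 and Arc. All 7 held TGACG, against 19.79% of 27025 genes, a gene being counted if any of its windows matched. Egr2 had several windows, not all of which held TGACG. The 7 genes were also rich in G and C there, at 58.4 to 74.4% (for Egr2 the mean of its windows). The median over all windows was 52.4%, and TGACG holds a CG pair. The full palindrome TGACGTCA, which contains the core, was in 0 of 7 (1.77% of genes) and the AP-1 site TGANTCA also in 0 of 7 (7.82%). An Egr site, searched as GCGTGGGCG or GCGGGGGCG, was in Fosb and Nr4a1 (3.47% of genes). The CArG box of SRF was found in Egr2 (1.62%), TATAAA in Fos (14.33%) and TGTTTAC, a forkhead site, in Junb (3.54%). These matches describe the sequence, and no binding was measured.

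Library totals ran from 10111149 to 23404528 counts, and no 2 libraries of a group were identical. The mouse gene Foxp2 stood at 1.77 to 6.54 CPM (counts relative to the TMM-scaled library total) in L2-3 under GFP, against 20.2 to 52.3 under FOXP2. In L4 the ranges were 5.39 to 8.75 and 33.3 to 64.9. L2-3 of FOXP2 mice thus held more Foxp2 RNA than any GFP library of that layer, although its label is GFP-negative cells. Of 9 layer 6 and subplate genes, Foxp2 among them, 7 also had higher estimates there in FOXP2 mice (median log2 fold change 0.65). The counts are of genes of the mouse genome (mm10), while 2 of the 3 FOXP2 mice received the human cDNA. How far reads of that cDNA count as Foxp2, and whether added or native RNA gave the Foxp2 difference, was not tested. In L5-6, where the gene is normally on, the ranges overlapped (52.5 to 68.6 against 39.6 to 77.8). Markers set L5-6 apart: the 9 genes of layer 6 and subplate neurons summed to 520 to 1033 CPM there and 127 to 224 CPM in the other layers. Of 8 markers of layer 2-3 neurons, 7 were lower in L5-6 than in L2-3. Markers did not set L4 apart from L2-3 as clearly. In L4 against L2-3, 1 of these 8 was higher and 0 lower, and 3 of 5 layer 4 markers were higher and 1 lower. Of 7 layer 5 markers, 4 were higher in L4 than in L2-3. Of 5 striatum markers, 4 were higher in L5-6 than in L2-3. GFP mouse 1 stood apart in every layer, with a chi-square per degree of freedom of 23.5 to 54.3 against the other GFP mice, which had 8.89 to 11.4 between them. In L4 it had the highest mitochondrial share (5.26%, against 2.99 to 4.08% in the other mice) and the highest sums of astrocyte (1732 CPM) and microglia genes (301 CPM). It was furthest off in L5-6, with the 8 oligodendrocyte lineage genes summing to 3847 CPM (1171 at the lowest of the 6 mice), the 7 astrocyte genes to 3203 CPM and a mitochondrial share of 7.50%. In L2-3 the 8 meningeal fibroblast genes summed to 403 to 1218 CPM under GFP, against 1449 to 2115 CPM under FOXP2. The 5 retina genes reached 12.2, 19.5 and 23.0 CPM in L2-3, L4 and L5-6 of huFOXP2 mouse 1. They summed to at most 1.94 CPM in GFP mice and 2.36 in the other FOXP2 mice.

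Per kilobase of exon, Egr1 had the highest mean level of the 10 genes in each layer and Fosb or Egr2 the lowest. Egr1 stood at 11.7 ± 3.37 CPM per kilobase in L2-3, 16.0 ± 3.73 in L4 and 14.3 ± 2.85 in L5-6 (SD, n = 6 mice). Egr3 came next in L2-3 and L4, at 11.1 ± 2.498 and 11.05 ± 3.52, but had 6.00 ± 1.08 in L5-6, where the means of Junb and Fos were above it. Fos was above Egr3 there in 3 of 6 mice, and its mean of 7.06 ± 5.99 held 18.4 in GFP mouse 1. In L2-3 the order went on with Junb, Fos, Nr4a1, Egr4, Arc, Npas4, Egr2 and Fosb, from 6.84 for Junb to 0.208 for Fosb. Of the 9 neighbouring pairs in this order, only Egr4 over Arc and Npas4 over Egr2 had ranges over mice that did not overlap. Npas4 and Arc, the members most restricted to neurons, were thus among the low ones in L2-3, at 0.771 ± 0.0974 and 0.813 ± 0.206. Fosb and Egr2 rested on few reads, with 5 to 102 and 9 to 29 counts per library. All 10 genes passed the filter on low counts in every comparison.

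**Figure D1:**
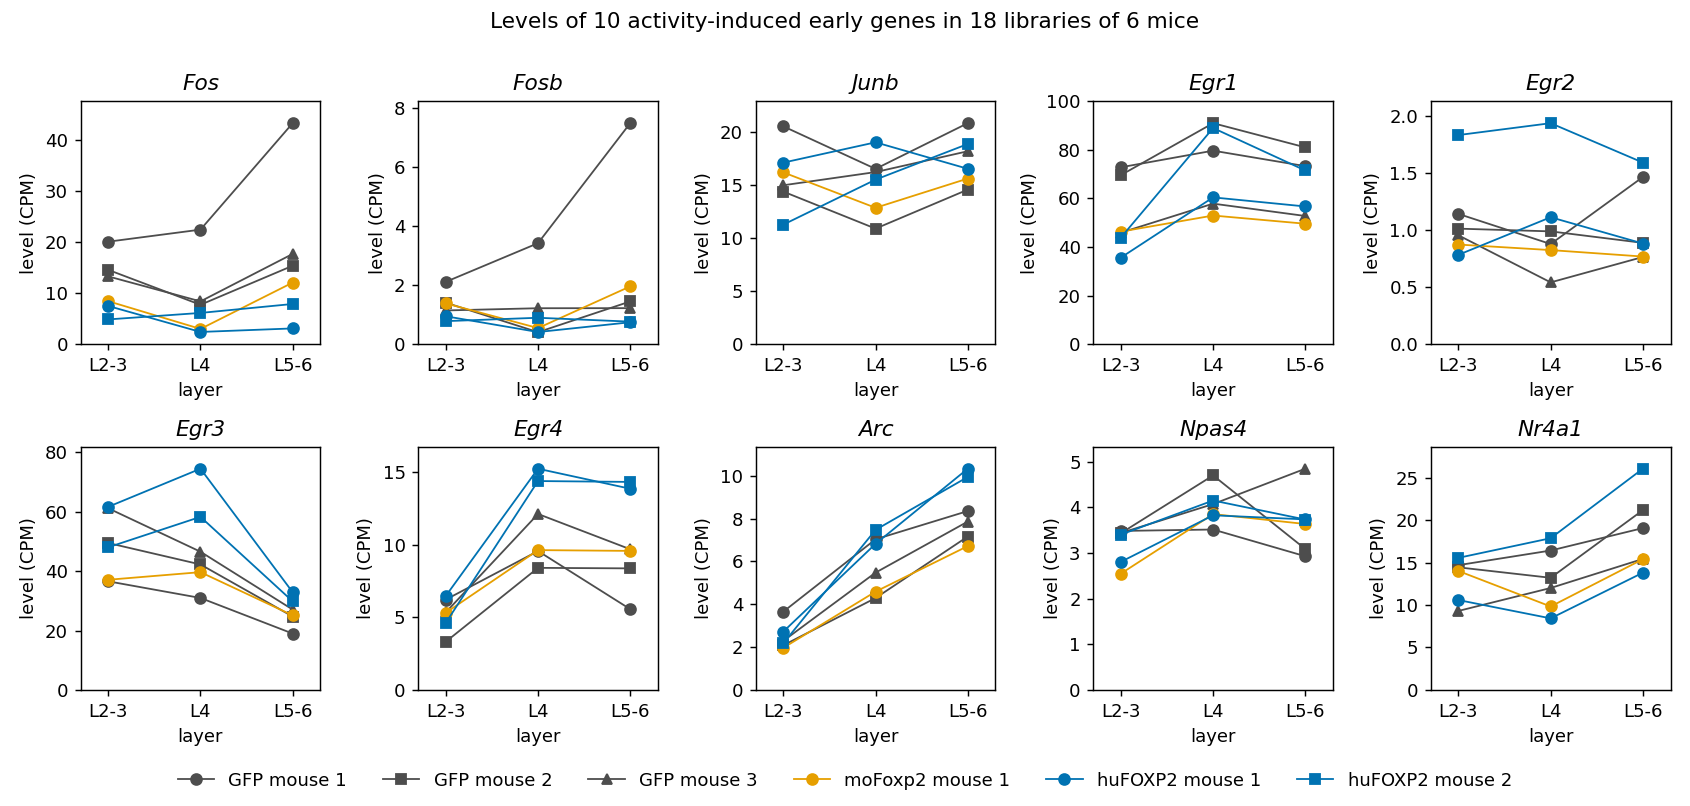
Level (CPM, linear axis from 0) of each of the 10 genes in L2-3, L4 and L5-6, 1 line per mouse, grey for GFP, orange for moFoxp2 and blue for huFOXP2. Arc climbs from L2-3 to L5-6 in all 6 mice, Egr3 is lowest in L5-6 in all 6, and GFP mouse 1 has the highest Fos and Fosb in each layer.

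The first comparison asked how these genes differ between layers of the same mouse, over all 6 mice with the mouse as a block. Arc and Egr4 were higher in L4 and L5-6 than in L2-3, Egr1 was slightly so, Nr4a1 was higher in L5-6 than in either other layer, Fos was higher in L5-6 than in L4, and Egr3 was lower in L5-6. In L4 against L2-3, 3 of 10 members were higher and 0 lower, where 35.4% of 15952 genes passed (16.3% higher, 19.1% lower). In L5-6 against L2-3, 4 were higher and 1 lower, where 38.2% of genes passed (18.9% higher, 19.3% lower). In L5-6 against L4, 3 were higher and 1 lower, where 34.8% passed (18.6% higher, 16.2% lower). The counts are thus close to those of genes in general, and the median log2 fold change of the members was -0.03, 0.29 and 0.12, against 0.03, 0.00 and 0.01 over all genes. The values of single members follow. In tissue of this kind, fewer cells that express a gene and less RNA per cell cannot be told apart. Markers of other cells differed too: 8 of 8 meningeal and 8 of 8 endothelial and mural genes were lower in L4 and in L5-6 than in L2-3. Of 8 oligodendrocyte lineage genes, 7 were higher in L5-6 than in L2-3. Their part in the differences of the members was not tested.

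Among the AP-1 genes, Fos (chromosome 12, 85473890 to 85477273, + strand, mm10) had 20.1, 14.6 and 13.3 CPM in L2-3 of GFP mice 1, 2 and 3, 8.46 in the moFoxp2 mouse and 7.52 and 4.89 in huFOXP2 mice 1 and 2. In the same order it had 22.5, 7.76, 8.42, 3.03, 2.44 and 6.16 CPM in L4, and 43.3, 15.4, 17.7, 12.1, 3.13 and 7.91 CPM in L5-6. L5-6 was thus above L4 in each of the 6 mice, while L4 was below L2-3 in 4 of them. Fos was higher in L5-6 than in L4 by 0.95 ± 0.25 (log2 fold change ± SE; edgeR quasi-likelihood test, Benjamini-Hochberg adjusted p = 0.0101). The call was lost among FOXP2 mice alone (0.91 ± 0.40, adjusted p = 0.134), and without the mouse block (adjusted p = 0.05001). In L4 against L2-3 the difference of Fos was -0.67 ± 0.26 (adjusted p = 0.0545), and it passed without GFP mouse 1 (-0.86, adjusted p = 0.0153), without huFOXP2 mouse 2 (-0.85, adjusted p = 0.0393), in DESeq2 (adjusted p = 0.0207) and with no filter (adjusted p = 0.00829).

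Fosb (chromosome 7, 19302696 to 19310051, - strand), which also exists as a truncated stable form in chronically driven neurons, had at most 7.47 CPM, in L5-6 of GFP mouse 1. The other 17 libraries ran from 0.413 to 3.42 CPM. The difference between L5-6 and L4 was 0.81 ± 0.32 (adjusted p = 0.0603), and it passed with no filter on low counts (adjusted p = 0.0290). Junb (chromosome 8, 84974484 to 84978718, - strand), the Jun-family partner, ranged from 10.9 to 20.8 CPM. Its layers lay close together, with means of 15.7 ± 3.08 CPM in L2-3, 15.2 ± 2.88 in L4 and 17.4 ± 2.297 in L5-6 (SD, n = 6). Junb overlaps Prdx2 on the opposite strand, and whether strand was used in counting is not given in the sources used here, so reads of the shared stretch are uncertain.

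Of the Egr genes, Egr4 (chromosome 6, 85511121 to 85513589, - strand) showed the steepest step between upper layers. It had 3.33 CPM at the lowest, 5.34 at the median and 6.49 at the highest mouse in L2-3, 8.42, 10.9 and 15.3 CPM in L4, and 5.57, 9.64 and 14.3 CPM in L5-6. The L2-3 and L4 ranges did not overlap. Egr4 was higher in L4 than in L2-3 by 1.12 ± 0.16 (adjusted p = 0.000166), in 6 of 6 mice, with folds of 1.54 to 3.11. Higher in all 6 mice, here and below, was the case for 18.8% of genes in L4 against L2-3, 13.6% in L5-6 against L2-3 and 19% in L5-6 against L4. Egr4 was also higher in L5-6 than in L2-3 (0.94 ± 0.16, adjusted p = 0.000366), in 5 of 6 mice, GFP mouse 1 being the exception with 5.57 against 6.23 CPM. Within GFP mice alone that difference was 0.68 ± 0.24 (adjusted p = 0.0754).

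Egr1 (Zif268, chromosome 18, 34859823 to 34864984, + strand), a widely used marker of recent activity, moved the same way with a smaller step. Its lowest, median and highest mice had 35.7, 46.2 and 72.8 CPM in L2-3, 53.0, 70.03 and 90.9 in L4, and 49.6, 64.1 and 81.0 in L5-6. The ranges overlapped, yet within a mouse L4 was above L2-3 in 6 of 6, by 1.09 to 2.02 times. Egr1 was higher in L4 than in L2-3 by 0.46 ± 0.10 (adjusted p = 0.00244) and in L5-6 than in L2-3 by 0.30 ± 0.10 (adjusted p = 0.0232). The L5-6 call was lost without huFOXP2 mouse 1 (0.23, adjusted p = 0.0972), without huFOXP2 mouse 2 (0.23, adjusted p = 0.0586) and without the block (0.31, adjusted p = 0.166). In GFP mice alone neither call held (0.28 ± 0.08, adjusted p = 0.0726, for L4; 0.14 ± 0.08, adjusted p = 0.228, for L5-6).

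Egr3 (chromosome 14, 70077203 to 70082614, + strand), known for its role in muscle spindles and in memory, ran the other way. In L5-6 it had 19.0 CPM at the lowest, 26.1 at the median and 32.9 at the highest mouse, below all 6 libraries of L2-3 (36.6, 48.8 and 61.7 CPM). In L4 it had 30.97, 44.4 and 74.5 CPM, and L5-6 was below L4 in 6 of 6 mice. Egr3 was lower in L5-6 than in L2-3 by -0.89 ± 0.09 (adjusted p = 4.07e-06) and than in L4 by -0.85 ± 0.09 (adjusted p = 2.04e-05). Lower in all 6 mice was the case for 13.7% and 18.6% of genes in these comparisons. Both differences passed in each of 12 alternatives, in GFP mice alone and in FOXP2 mice alone among them. Egr2 (Krox20, chromosome 10, 67535475 to 67542188, + strand), a factor needed for myelin in Schwann cells, ranged from 0.543 to 1.94 CPM and differed between layers by -0.08 ± 0.19, -0.05 ± 0.19 and 0.03 ± 0.19, none of which passed. Its highest 3 libraries were those of huFOXP2 mouse 2.

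Arc (chromosome 15, 74669083 to 74672570, - strand) had the largest difference between layers of the 10 genes. Its lowest, median and highest mice had 1.97, 2.24 and 3.66 CPM in L2-3, 4.29, 6.15 and 7.48 in L4, and 6.72, 8.11 and 10.3 in L5-6. The L2-3 range lay below both others, and in each mouse the level climbed from L2-3 over L4 to L5-6. Arc was higher in L4 than in L2-3 by 1.24 ± 0.12 (adjusted p = 8.82e-06), in L5-6 than in L2-3 by 1.75 ± 0.12 (adjusted p = 7.3e-08) and in L5-6 than in L4 by 0.51 ± 0.11 (adjusted p = 0.00352). The folds within a mouse were 1.92 to 3.42, 2.28 to 4.55 and 1.19 to 1.67. The last call was lost in GFP mice alone (0.50 ± 0.16, adjusted p = 0.0560).

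Npas4 (chromosome 19, 4984355 to 4990316, - strand), which is switched on by calcium entry rather than by growth factors, ran from 2.55 to 3.49 CPM in L2-3, 3.52 to 4.70 in L4 and 2.93 to 4.85 in L5-6. L4 was above L2-3 in 6 of 6 mice, in GFP mouse 1 by 1.01 times. The difference, 0.33 ± 0.13, did not pass (adjusted p = 0.0621), but passed without GFP mouse 1 (0.39, adjusted p = 0.0319).

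Nr4a1 (chromosome 15, 101254269 to 101274795, + strand) had 9.30 CPM at the lowest, 14.2 at the median and 15.6 at the highest mouse in L2-3, 8.42, 12.6 and 17.9 in L4, and 13.8, 17.2 and 26.04 in L5-6. Ranges overlapped, but in each mouse L5-6 was the highest layer. It was higher in L5-6 than in L2-3 by 0.48 ± 0.10 (adjusted p = 0.00182) and than in L4 by 0.52 ± 0.10 (adjusted p = 0.00213). Neither passed without the mouse block (adjusted p = 0.0580 and 0.0591).

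**Figure D2:**
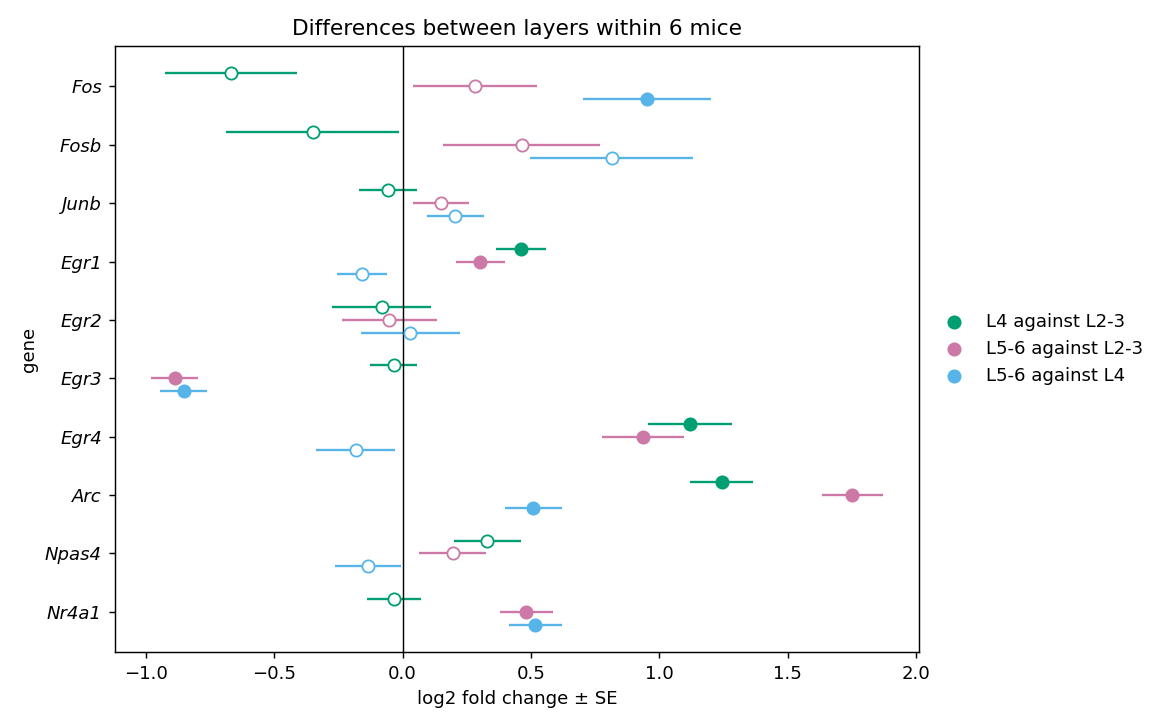
Log2 fold change (horizontal axis, bars give the SE) of each gene between layers within 6 mice, filled where the adjusted p is under 0.05. Arc has filled points in all 3 comparisons at 1.24, 1.75 and 0.51, and Egr3 is the one gene with filled points below 0.

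The second comparison asked whether FOXP2 mice differ from GFP mice in each layer, which is the comparison the study was built on. None of the 10 genes passed in any layer in edgeR, where 0.0722% of 15241 genes did in L2-3, 0.0275% of 14544 in L4 and 0.0196% of 15330 in L5-6. At an unadjusted p under 0.05 there were 2 members in each layer, against 15.8%, 3.14% and 6.17% of genes. DESeq2 called Fos in L2-3 and L4 and 0 members in L5-6, where it called 5.26%, 0.229% and 0.365% of genes in these layers. The differences largest in size belonged to Fos and Fosb, which had lower levels in FOXP2 mice. Those above 0 were largest for Egr2 in L4, Egr4 in L5-6 and Egr3 in L4.

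From the values above, each FOXP2 mouse had less Fos than each GFP mouse in all 3 layers. All FOXP2 mice below all GFP mice was found for 8.25% of genes in L2-3, 3.87% in L4 and 6.85% in L5-6, and in all 3 layers at once for 0.125% (18 of 14385 genes, Fos among them). The means were 16.01 ± 3.61 against 6.96 ± 1.85 CPM in L2-3, 12.9 ± 8.31 against 3.88 ± 2.00 in L4 and 25.5 ± 15.5 against 7.71 ± 4.49 in L5-6 (GFP against FOXP2, SD, n = 3 each). The differences were -1.20 ± 0.24 (adjusted p = 0.0956), -1.70 ± 0.48 (adjusted p = 0.9999) and -1.73 ± 0.53 (adjusted p = 0.713). Over the layers of a mouse the mean level was 18.1 ± 9.11 against 6.18 ± 1.76 CPM, and an exact two-sided permutation test over the mice gave p = 0.1, the smallest that 3 against 3 allows. With the layers summed, the difference was -1.48 ± 0.34 (adjusted p = 0.779), and 0 members passed, against 0.0172% of 17462 genes (1 member at an unadjusted p under 0.05, 4.09% of genes; DESeq2 called Fos and 0.37% of genes).

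The difference was smaller without GFP mouse 1, by more in L4 and L5-6 than in L2-3. The Fos differences were then -0.99 in L2-3, -1.05 in L4 and -1.10 in L5-6, and with the layers summed -1.003. Fos passed in L2-3 in DESeq2 (adjusted p = 0.000585) and with no filter on low counts (adjusted p = 0.000552). In L4 it passed in DESeq2 (adjusted p = 0.0416) and with no filter (adjusted p = 1.11e-10), and in L5-6 with no filter (adjusted p = 4.06e-05). The estimates with no filter, -1.68 in L4 and -1.70 in L5-6, were near the main ones of -1.70 and -1.73, which did not pass. With no filter 3.04%, 0.683% and 1.11% of genes passed in L2-3, L4 and L5-6. In L4 and L5-6 the astrocyte and microglia genes and the mitochondrial share of GFP mouse 1 were the highest of the 6 mice, and in L2-3 the meningeal genes were higher in FOXP2 than in GFP mice, as given above. The part of these in the Fos difference was not tested.

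Fosb went with Fos in GFP mouse 1, at 2.11, 3.42 and 7.47 CPM in L2-3, L4 and L5-6, against 0.413 to 1.96 CPM in the other 15 libraries. The differences were -0.59 ± 0.35, -1.35 ± 0.68 and -1.53 ± 0.78 (adjusted p = 0.476, 0.9999 and 0.713). Without GFP mouse 1 they shrank to -0.48 in L4 and -0.23 in L5-6. In no layer were the FOXP2 mice all below the GFP mice. Junb differed by -0.16 ± 0.21, 0.12 ± 0.21 and -0.08 ± 0.17 and overlapped in each layer.

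Egr1 had 72.8, 69.6 and 45.9 CPM in L2-3 of the GFP mice, and 46.4, 35.7 and 43.9 with FOXP2, so that the moFoxp2 mouse overlapped GFP mouse 3. The difference was -0.59 ± 0.19 (adjusted p = 0.180), smaller in L4 (-0.17 ± 0.22) and L5-6 (-0.23 ± 0.19). It passed in L2-3 with no filter on low counts (adjusted p = 0.0150). In the same L2-3 libraries the 8 markers of layer 2-3 neurons summed to 1508 to 1666 CPM under GFP and to 1250 to 1291 CPM under FOXP2. Their part in the Egr1 difference was not tested. Egr3 in L4 had 30.97, 42.3 and 46.5 CPM in the GFP animals, while the FOXP2 animals had 39.7, 74.5 and 58.3, a difference of 0.52 ± 0.23 (adjusted p = 0.9999). It passed with no filter (adjusted p = 0.0164). Egr4 in L5-6 had 5.57, 8.38 and 9.70 CPM under GFP alone, and under FOXP2 9.59, 13.9 and 14.3, where the moFoxp2 mouse lay just below GFP mouse 3. That difference was 0.66 ± 0.24 (adjusted p = 0.713).

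Of the remaining genes, Npas4 in L2-3 had 3.49, 3.44 and 3.44 CPM with GFP, and 2.55, 2.81 and 3.41 with FOXP2. The groups did not overlap, but the nearest mice differed by less than the spread within FOXP2 mice, and the difference was -0.25 ± 0.22 (adjusted p = 0.628). Arc differed by -0.22 ± 0.30, 0.18 ± 0.26 and 0.20 ± 0.20, and Nr4a1 by 0.04 ± 0.22, -0.19 ± 0.28 and -0.02 ± 0.25, in L2-3, L4 and L5-6. Egr2 had its largest difference in L4 (0.76 ± 0.42). The SEs of the 10 genes ran from 0.16 to 0.78.

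**Figure D3:**
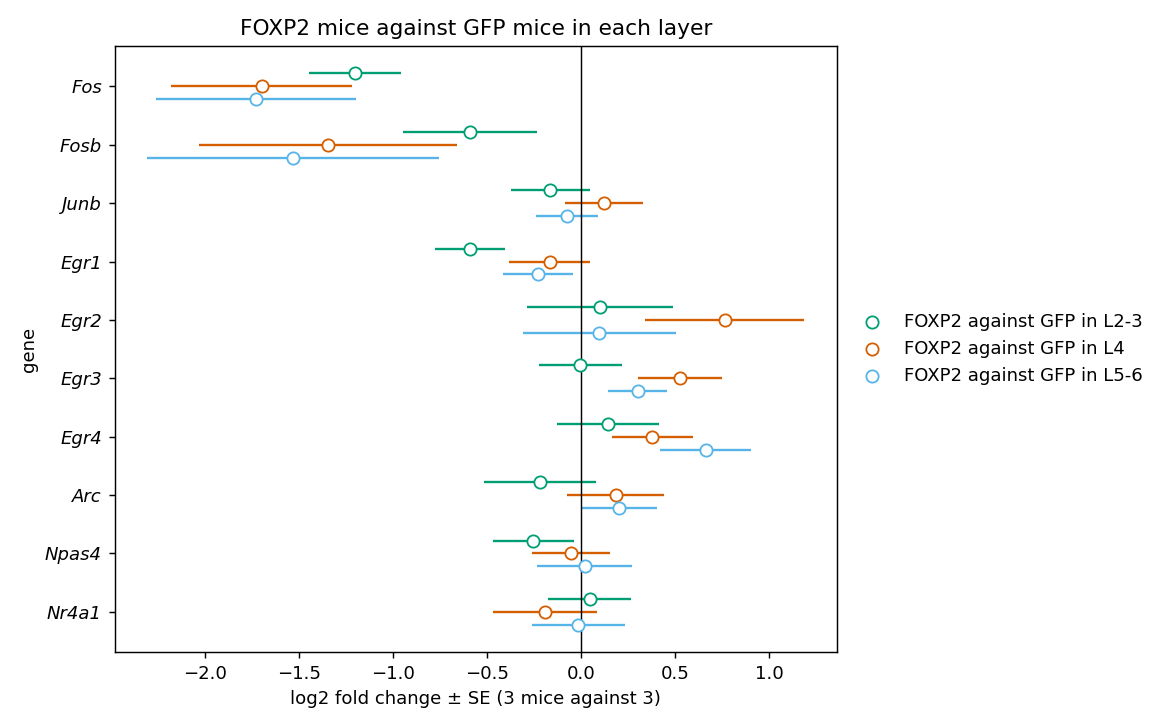
Log2 fold change (horizontal axis, bars give the SE) of each gene in 3 FOXP2 mice against 3 GFP mice, by layer, with open points because none has an adjusted p under 0.05. Fos lies at -1.20, -1.70 and -1.73, and Fosb beside it with wider bars.

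The third comparison asked whether the FOXP2 difference itself changes between layers, within mice. None of the 10 genes passed in edgeR: for L4 minus L2-3 0% of 16305 genes passed, for L5-6 minus L2-3 14.9% and for L5-6 minus L4 0.00613%. At an unadjusted p under 0.05 there were 2, 1 and 0 members, against 17.5%, 32.2% and 5.65% of genes. DESeq2 called 1, 0 and 0, and 4.2%, 18% and 0.0688% of genes. The closest was Egr3. In GFP mice L4 was below L2-3 in each of 3 (30.97 against 36.6, 42.3 against 49.5 and 46.5 against 61.2 CPM), and in FOXP2 mice L4 was above L2-3 in each of 3 (39.7 against 37.1, 74.5 against 61.7 and 58.3 against 48.04 CPM). The share of all genes that split the mice in this way was not counted. For Egr3 the difference of the differences was 0.51 ± 0.12 (adjusted p = 0.0793). It passed in DESeq2 (0.50, adjusted p = 0.0286) and with no filter on low counts (0.53, adjusted p = 0.0147), where 4.06% of genes did. The 8 markers of layer 2-3 neurons moved along with it: they summed to 1508 to 1666 CPM in L2-3 and 1348 to 1643 in L4 under GFP, and to 1250 to 1291 in L2-3 and 1730 to 1774 in L4 under FOXP2, and their part in the Egr3 result was not tested. For L5-6 minus L2-3, Egr3 gave 0.33 ± 0.13 (adjusted p = 0.0929) and Egr1 0.34 ± 0.17 (adjusted p = 0.173), the latter passing without the moFoxp2 mouse (0.54, adjusted p = 0.0356).

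The 10 genes did not go up and down as a block over the 18 libraries. Of 45 pairs, 28 had a Pearson r of log2 CPM above 0, with a median of 0.07. Fos and Fosb were the closest pair at 0.86, followed by Egr4 and Arc at 0.80. Egr3 and Nr4a1 were the most opposed at -0.68, and Egr3 was below 0 with Fosb (-0.62), Fos (-0.58) and Arc (-0.50). After the mean of its layer was taken from each library, Fos and Fosb remained at 0.85 and Egr4 and Arc at 0.60, while Egr3 and Egr4 reached 0.61. The most opposed were then Egr3 and Fosb (-0.68), Egr3 and Fos (-0.65) and Fos and Egr4 (-0.58). Without GFP mouse 1, over 15 libraries, Fos and Fosb had 0.75 and Egr4 and Arc 0.90. These values describe 18 libraries that share 6 mice and 3 layers.

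**Figure D4:**
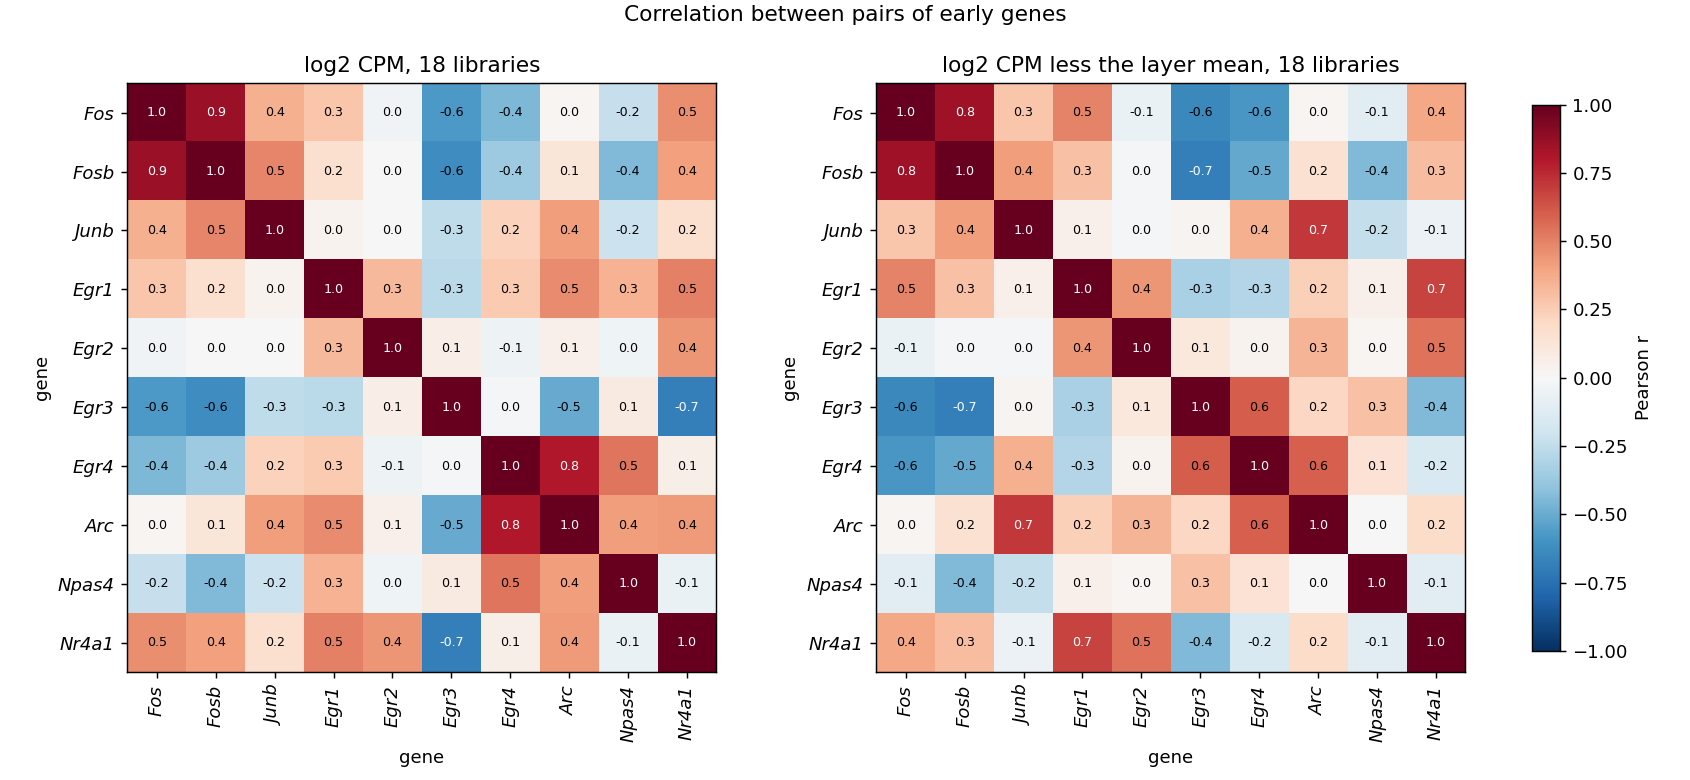
Pearson r between pairs of genes over 18 libraries, on log2 CPM (left) and after subtracting the mean of each layer (right), red above 0 and blue below. Fos and Fosb form the strongest pair on both sides (0.86 and 0.85), and Egr3 is blue against Fos and Fosb.

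The genes whose pattern was most like the mean of the 10 were Lgi3 (r = 0.87), Kcnt1 (0.85), Sugp1 (0.85), Mink1 (0.83), Plekhm2, Aars2, Fmnl1, Scnn1a, Porcn and Abcb8 (0.82 to 0.83), over 18 libraries and 14325 genes of at least 1 CPM. The least like were Npy1r (-0.90), Mospd1 (-0.88), Vkorc1, D430019H16Rik and Exo5 (-0.85 to -0.84). Only 1 of the 10 remained among the top 10 without GFP mouse 1, and 3 after the layer means were taken out. Single members gave closer matches, in an addition made after the values were seen. Arc was most like Fxyd7 (0.96), an ion pump regulator, Cntnap1 (0.95), an adhesion protein of myelinated axons, and the cholecystokinin receptor gene Cckbr (0.95). Egr4 was most like Adrb1 (0.95), which encodes an adrenergic receptor, and Egr3 most like Oxtr (0.94), the oxytocin receptor gene. Fos was most like the collagen gene Col5a3 (0.89), followed by AC154683.1 (0.87) and Fosb (0.86). Without GFP mouse 1, Fos was most like Gpr149 (0.85), and its r with Fosb was 0.75.

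The wider response was read from lists of its other genes. Among 24 other rapid early genes, 1 was higher and 7 lower in L4 than in L2-3, 5 were higher and 5 lower in L5-6 than in L2-3, and 9 were higher and 1 lower in L5-6 than in L4. Of all genes, 16.3% were higher and 19.1% lower in the first, 18.9% and 19.3% in the second and 18.6% and 16.2% in the third of these comparisons. The sister receptors of Nr4a1 were among those higher in L5-6. Nr4a3 stood at 8.37 ± 3.17 CPM in L2-3, 16.4 ± 7.08 in L4 and 48 ± 17.5 in L5-6 (SD, n = 6), and was higher in L5-6 than in L2-3 by 2.53 ± 0.09 (adjusted p = 4.96e-10). Nr4a2, also an identity gene of claustrum and subplate neurons, was higher there by 3.13 ± 0.35 (adjusted p = 7.47e-06). Fosl2, a Fos relative, was higher by 1.57 ± 0.13 (adjusted p = 5.66e-07), while Klf2 was lower in L5-6 than in L2-3 by -1.01 ± 0.14 (adjusted p = 5.63e-05). Jun was higher in L5-6 than in L4 by 0.70 ± 0.12 (adjusted p = 0.000768). Klf2 and Klf4, which endothelial cells also express, were lower in L4 than in L2-3 by -0.94 ± 0.14 (adjusted p = 0.000218) and -1.47 ± 0.23 (adjusted p = 0.000309), though in GFP mice alone Klf4 did not pass (adjusted p = 0.0512). The 8 endothelial and mural genes summed to 664 to 1361 CPM in L2-3 and 345 to 491 CPM in L4, and their part in this was not tested. The medians of the list were -0.16, -0.04 and 0.23 (L4 against L2-3, L5-6 against L2-3, L5-6 against L4), beside 0.03, 0.00 and 0.01 over all genes.

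Of 13 feedback regulators, 3 were higher and 0 lower in L4 than in L2-3, 5 and 1 in L5-6 than in L2-3, and 4 and 1 in L5-6 than in L4, where 35.4%, 38.2% and 34.8% of all genes passed in either direction. Nab1 and Nab2, corepressors that bind Egr proteins, were higher in L5-6 than in L2-3 by 0.51 ± 0.07 (adjusted p = 8e-05) and 0.61 ± 0.11 (adjusted p = 0.000366). Spry2, an inhibitor of receptor tyrosine kinase signalling, was higher by 0.64 ± 0.11 (adjusted p = 0.000439) and the phosphatase gene Dusp2 lower by -0.64 ± 0.13 (adjusted p = 0.00107). Spry2 did not pass in FOXP2 mice alone (adjusted p = 0.0552), nor Dusp2 in GFP mice alone (adjusted p = 0.0794). Among 12 delayed response genes, 2 were higher and 1 lower, then 3 and 4, then 3 and 4, in the same order of comparisons and beside the same shares of all genes. Bdnf, the neurotrophin, had 1.35 ± 0.352 CPM in L2-3, 1.299 ± 0.549 in L4 and 3.70 ± 0.657 in L5-6 (1.45 ± 0.18 for L5-6 against L2-3, adjusted p = 1.8e-05). The granule protein genes Vgf (1.55 ± 0.18, adjusted p = 1.16e-05) and Scg2 (1.11 ± 0.10, adjusted p = 1.31e-06) were higher in L5-6 than in L2-3, as Arc was. The prohormone convertase gene Pcsk1 (-0.84 ± 0.11, adjusted p = 3.97e-05) was lower there, as Egr3 was.

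Among 22 upstream regulators, 5 were higher and 1 lower in L4 than in L2-3, 4 and 7 in L5-6 than in L2-3, and 2 and 7 in L5-6 than in L4 (35.4%, 38.2% and 34.8% of all genes). Mef2c was lower in L5-6 than in L2-3 by -0.85 ± 0.14 (adjusted p = 0.000262), and the kinase gene Rps6ka2 by -0.82 ± 0.09 (adjusted p = 5.59e-06). A list of 10 heat shock genes was chosen with handling in mind, which was not measured. Of these, 4 were higher and 2 lower in L4 than in L2-3, and 1 and 2 in L5-6 than in L2-3. In L5-6 against L4 the counts were 0 and 2, all beside the same shares. In L4 against L2-3, those higher included Hsph1 (0.61) and Hspd1 (0.20), and 8 of the 10 estimates were above 0 (median 0.13). Those lower were Hspb1 (-1.51) and Bag3 (-1.46). In that comparison 8 of 8 endothelial and mural genes were lower too, and their part was not tested. In FOXP2 against GFP mice, 0 of the 80 genes on these 5 lists passed in any layer in edgeR (20, 3 and 5 at an unadjusted p under 0.05 in L2-3, L4 and L5-6, against 15.8%, 3.14% and 6.17% of genes). DESeq2 called 4 in L2-3, Btg2, Klf2, Hsph1 and Bag3, where it called 5.26% of genes, and 0 in L4 and L5-6. Their medians lay between -0.22 and 0.19.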

How the data were processed

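The authors deposited raw read counts per gene for 18 libraries, with no normalization. Per the submitters' processing notes, STAR, HTSeq and the mm10 genome were used. Tool versions, gene models and strand handling are not stated there. Groups were taken from the sample titles. The members and the lists were chosen with earlier results of these data known. Gene positions and lengths came from GENCODE M21, in which 54409 of 54446 identifiers matched without their version, the deposited identifier of Npas4 being an earlier version.

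Counts were tested with edgeR 4.0.16 in R 4.3.3 (quasi-likelihood test, TMM factors, filterByExpr with a minimum count of 10 and a minimum total of 15). P-values were adjusted over all genes tested, with a threshold of 0.05. CPM are counts relative to the TMM-scaled library total, and correlations used log2 CPM with a prior count of 2. SEs are the log2 fold change over the square root of F. Layers were compared over all mice with the mouse as a block. FOXP2 and GFP mice, the moFoxp2 mouse pooled with the huFOXP2 mice, were compared in each layer and over summed layers, and the change of that difference between layers with the mouse as a block. The labels say that layers were pooled for each mouse. As a check of this pairing, libraries of a mouse deviated together from their group means over 15952 genes, with r = 0.263 to 0.630 in 18 of 18 pairs, all above 0.1. The labels do not say whether mice shared a litter.

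Replicate libraries differed by more than sampling noise in 12 of 12 pairs (chi-square per degree of freedom 8.89 to 54.3). The scripts were tested on simulated data. Alternatives were DESeq2 1.42.0, RLE size factors, no filter, leaving out each mouse, no replicate block, GFP or FOXP2 mice only, huFOXP2 mice only, and a block over replicate numbers 1 and 2. All 10 members were named in every comparison, and genes of each other list were drawn from the up to 4 of smallest p among those that passed, not all of which are printed. The 10 most and 5 least alike genes were those of the highest and lowest r with the mean of the standardised members.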

Additional observations from a re-analysis of the deposited data

Results flagged for a closer look

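None of the 10 early genes met a rule for a closer look. The FOXP2 difference changed between L5-6 and L2-3 for genes of the wider response, by a test of that change with the mouse as a block (edgeR, Benjamini-Hochberg adjusted). The genes that passed were 3 of 24 other rapid early genes, 1 of 13 feedback regulators, 4 of 12 delayed genes, 6 of 22 upstream regulators (4 more positive, 2 more negative in L5-6) and 4 of 10 heat shock genes. The 11 named next are among those of smallest p on the first 4 lists. It was more positive in L5-6 for the delayed genes Syt4 (1.16), Inhba (1.005), Plk2 (0.76) and Homer1 (0.46). The same held for the upstream regulators Mef2c (0.88), Camk4 (0.62) and Mef2a (0.55), and for Klf6 (0.37). It was more negative in L5-6 for Btg2 (-1.08), Klf2 (-0.78) and Spry4 (-0.77). Adjusted p ran from 0.00961 for Mef2c to 0.0266 for Klf6, where 14.9% of all genes passed. Of the heat shock genes, Hsph1 (0.65), Hsp90aa1 (0.57) and Hspa8 (0.32) were more positive and Bag3 (-1.20) more negative in L5-6. Without huFOXP2 mouse 1 none of the 11 passed (adjusted p 0.0668 to 0.140), and without the block none did. Over all genes the calls fell from 2436 to 1 and to 0 in these settings, while Syt4 still had 1.02 and Btg2 -0.98 without that mouse. Markers shifted in the same comparison: 7 of 8 of layer 2-3 neurons passed as more positive, and 7 of 8 of endothelial and mural cells, 5 of 7 of astrocytes and 3 of 3 of red blood cells as more negative. Their part was not tested.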

How the results depend on the processing

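The 12 calls of members between layers were repeated under 144 alternatives in all, of which 133 kept the call and 11 lost it, and 0 changed direction. Of 996 values that had not passed, 20 passed under an alternative. Over 1140 member values 74 changed sign, none of them past the threshold.

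The number of members called moved by over 1.5 times as follows. L4 against L2-3 had 3, and 3 to 5 when a mouse was left out. L5-6 against L2-3 had 5, with 4 to 5 when a mouse was left out, and 3 with no replicate block or in GFP mice only. L5-6 against L4 had 4, and 2 with no replicate block. FOXP2 against GFP had 0 in each layer and with layers summed. In DESeq2 it had 1 in L2-3, 1 in L4 and 1 summed, each Fos, and with no filter 2 in L2-3, 2 in L4, 1 in L5-6 and 1 summed. For the change of the FOXP2 difference between L4 and L2-3, DESeq2 and no filter each gave 1 (Egr3) against 0. For L5-6 minus L2-3, 0 to 1 were called when a mouse was left out. The cause was not tested.

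GFP and huFOXP2 mice share only replicate numbers (r of deviations -0.264 to 0.128). A replicate block over numbers 1 and 2 gave 2 members in L4, Fos and Egr3 (adjusted p = 0.0318 and 0.0280), against 0 in the same mice without the block. Over all genes it called 69 against 5 in L4. All genes called in L2-3, L4 and L5-6 were 11, 4 and 3 in the main setting, 755, 32 and 56 in DESeq2 and 865, 189 and 323 with no filter. Fosb and Egr2 had as few as 5 and 9 counts in a library, which limits their precision.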
